A study of Mus musculus with 2 samples.

Results

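The genes described here were 10 members of the bone morphogenetic protein (BMP) pathway: the ligands *Bmp2*, *Bmp4*, *Bmp5*, *Bmp6* and *Bmp7*, the receptors *Bmpr1a*, *Bmpr1b* and *Bmpr2*, and the antagonists *Nog* (noggin) and *Chrd* (chordin). They were chosen by name for their roles in the pathway, with earlier results of these data already known. Among these, the authors had reported *Bmp6* as higher in the mutant nerve. All 10 were found, as 1 row each, among 23951 gene symbols present in the tables of both libraries. RNA was sequenced from optic nerves at P12, an age at which the nerve is being myelinated, with 1 library per genotype. The control library came from mice labelled Tcf7l2 c/+; OLig1-cre, which carry 1 floxed *Tcf7l2* allele, and the mutant library (*Tcf7l2*ΔHMG) from mice labelled Tcf7l2 c/c; OLig1-cre, in which both alleles are floxed. The Cre transgene, which both groups carry, is driven from *Olig1* and acts in the oligodendrocyte (OL) lineage, so astrocytes, meninges and vessels of the same nerves were not the intended target. The excised exon encodes the DNA-binding HMG box. How many animals went into each library is not given in the sources used here.

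BMPs are secreted dimers that bind a complex of type I receptors (here *Bmpr1a* and *Bmpr1b*) and type II receptors (here *Bmpr2*). The activated type I receptor phosphorylates Smad1, Smad5 and Smad9, which enter the nucleus with Smad4 and induce targets such as the *Id* genes. Noggin and chordin bind the ligands outside the cell and keep them from the receptors. In the developing white matter, BMP signalling is known to hold back OL differentiation and to favour astrocyte fate.

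Promoter sequences are shown for 3 of the 5 ligands and for the receptor that carried the most messenger RNA, because the ligands differed between the libraries together and the receptor differed least among the receptors. RefSeq promoter entries (build GRCm38.p6) matched 7 of the 10 genes, and not *Bmp2*, *Bmp7* or *Nog*. Each run is the 250 bases before the annotated start, written 5′ to 3′ on the strand of the gene. *Bmp4* is taken from chr14:46390670-46390919 (minus strand), *Bmp5* from chr9:75775115-75775364 (plus strand), *Bmp6* from chr13:38345466-38345715 (plus strand) and *Bmpr1a* from chr14:34502547-34502796 (minus strand). Capitals mark a match to GGCGCC, a GC-rich element that BMP Smads can bind.
Bmp4: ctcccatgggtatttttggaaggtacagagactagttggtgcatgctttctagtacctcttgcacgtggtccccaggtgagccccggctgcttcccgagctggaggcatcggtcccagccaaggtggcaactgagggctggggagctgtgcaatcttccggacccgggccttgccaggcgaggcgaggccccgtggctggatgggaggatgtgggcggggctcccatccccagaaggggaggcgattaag
Bmp5: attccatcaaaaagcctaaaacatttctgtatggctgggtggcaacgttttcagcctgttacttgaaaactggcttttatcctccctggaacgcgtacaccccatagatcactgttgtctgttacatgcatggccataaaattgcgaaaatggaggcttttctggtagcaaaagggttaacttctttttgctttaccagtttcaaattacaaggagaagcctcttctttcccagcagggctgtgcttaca
Bmp6: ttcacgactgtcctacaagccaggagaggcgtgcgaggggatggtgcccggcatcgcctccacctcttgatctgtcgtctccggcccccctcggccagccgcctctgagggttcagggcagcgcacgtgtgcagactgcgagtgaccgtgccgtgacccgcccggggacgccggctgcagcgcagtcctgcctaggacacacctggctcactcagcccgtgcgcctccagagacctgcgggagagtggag
Bmpr1a: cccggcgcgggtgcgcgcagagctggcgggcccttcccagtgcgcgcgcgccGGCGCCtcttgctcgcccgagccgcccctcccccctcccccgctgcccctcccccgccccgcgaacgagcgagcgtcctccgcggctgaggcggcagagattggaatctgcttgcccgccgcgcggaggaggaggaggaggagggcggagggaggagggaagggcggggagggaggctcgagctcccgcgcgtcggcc
The core of the TCF/LEF motif, TCAAAG, was searched on both strands and was in none of the 9 windows of the 7 genes. Of all 32851 promoter windows, 13.8% held it, and 9 windows are too few to set an absence against that share. The *Bmpr1b* windows that start at 141931421 and 141931589 overlap each other. For both, the bases after the start were not found in a transcript of the gene. GGCGCC, which reads the same on both strands and overlapped no TCAAAG match, was found once each in *Bmpr1a*, *Bmpr2* and *Chrd*, and in 9.59% of all windows. The ligand windows differed in base composition, with 63.2% G and C in *Bmp4*, 68.8% in *Bmp6* and 42.8% in *Bmp5*, beside a median of 52.4% over all windows. The windows that held GGCGCC were themselves rich in G and C, at 78.8% in *Bmpr1a*, 78.0% in *Chrd* and 64.0% in *Bmpr2*, and the share of all windows was not matched for this. These matches describe letters in a short window and are not binding sites.

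Expression was given as FPKM, a count of fragments scaled to transcript length and to the mapped total, which can be compared between genes because it is divided by length. Cufflinks gave each value a confidence interval, which reflects the counting of fragments and holds no spread from animal to animal. Without replicates, no difference has a test, and genes were counted as different where the mutant and control values, each with 0.1 added, differed by a fold above 1.5. The adjusted values give a log2 ratio of mutant to control, which understates the change of low genes. Of 14199 genes that reached 1 FPKM in either library, 15.4% were higher in the mutant by that fold and 8.52% were lower, and the median log2 ratio was 0.047. The libraries held 27624000 (control) and 39938000 (mutant) mapped fragments, as read from interval bounds of short unnamed rows. *Tcf7l2* itself was 17.8 FPKM in control and 14.6 in mutant nerves, with intervals of 16.7 to 18.9 and 13.9 to 15.4. As the value covers all exons, it does not check the excision.

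All 5 ligands were higher in the *Tcf7l2*ΔHMG optic nerve and each passed a fold of 1.5, whereas the 3 receptors and 2 antagonists stayed below it. The Cufflinks intervals allowed log2 ratios above that fold for *Bmpr1b* (up to 0.61), *Chrd* (0.72) and *Nog* (0.79). For *Bmp5* (down to 0.35) and *Bmp2* (0.21) they allowed ratios below it. None of the ligands passed the fold with a common sum over all rows, where *Bmp5* was -0.002, or relative to the median of the meningeal markers, all 7 of which were higher in the mutant too. On the deposited scale, 5 of the 10 genes were higher by more than 1.5-fold and 0 were lower, beside 15.4% and 8.52% of all genes tested. The median log2 ratio was 0.56 over the 10 genes, 0.85 over the ligands, 0.29 over the receptors and 0.26 over the antagonists. In whole nerve RNA, a larger number of cells that express a gene and more of its RNA per cell cannot be told apart. Among genes with a mean FPKM of at least 10, as for *Bmp4*, *Bmp6*, *Bmp7* and *Bmpr1a*, 11.2% were higher by that fold, and among genes under 10 it was 19.6%.

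**Figure D1:**
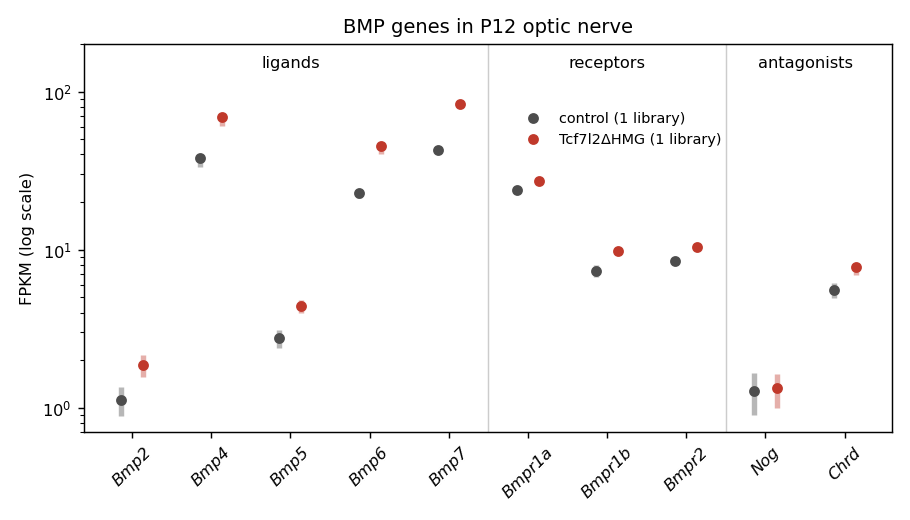
FPKM of the 10 BMP genes (log axis) in the control (grey) and *Tcf7l2*ΔHMG (red) library, with bars for the Cufflinks interval of each value. The red point lies above the grey one for each ligand, from 1.86 against 1.12 FPKM for *Bmp2* to 83.9 against 42.45 for *Bmp7*, while the bars of *Nog* overlap.

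*Bmp7*, a ligand of the subgroup that also holds *Bmp5* and *Bmp6*, had the highest level of the 10 genes in both libraries. It was 42.45 FPKM in the control (interval 41.1 to 44.4) and 83.9 FPKM in the mutant (82.3 to 85.5), a log2 ratio of 0.98. The mutant value lay well above the control interval, and 7.08% of all genes tested had a higher ratio. The files, in build mm9, place its row on chromosome 2 from 172693443 to 172766043 in the control. In the mutant the row was 70 bases shorter at the first end and 221 bases shorter at the other, since rows were assembled in each library separately.

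*Bmp6*, a close relative that also signals in iron homeostasis, was 23.0 FPKM in the control (interval 21.35 to 23.85) and 45.5 FPKM in the mutant (40.55 to 44.07). The log2 ratio of 0.98 was the highest of the 10, next to that of *Bmp7*, and the intervals allowed 0.76 to 1.04. The mutant FPKM lay above its own interval, so the interval does not describe its error fully. On chromosome 13 (mm9), the control row of *Bmp6* ran from 38436993 to 38592278 and overlapped the neighbouring *Txndc5* by 139 bases. In the mutant the row kept the annotated span of 38437585 to 38591597, which was shorter by 592 and 681 bases at its ends.

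*Bmp4*, which forms the other subgroup with *Bmp2* and is known to block OL precursor maturation in culture, was 38.0 FPKM in control and 68.6 in mutant nerves (log2 ratio 0.85). Both values lay above their own intervals of 33.15 to 37.55 and 60.56 to 65.93, and these intervals did not overlap. The row covered chromosome 14 from 47003196 to 47010274 (mm9) in both libraries. In the control, 3 further unnamed rows of 120 to 186 bases lay inside this span, and in the mutant there were 0. Their interval bounds corresponded to between 23 and 88 fragments in all. With 88 fragments assigned to *Bmp4* over its shortest coding transcript (1633 bases), the control would be 39.9 FPKM and the log2 ratio 0.78, still above the fold of 1.5.

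*Bmp5* and *Bmp2* were measured at far lower levels. *Bmp5* was 2.75 FPKM in the control (2.40 to 3.10) and 4.38 in the mutant (3.97 to 4.78), a log2 ratio of 0.65. *Bmp2* was 1.12 FPKM in the control (0.893 to 1.350) and 1.86 in the mutant (1.57 to 2.14), a log2 ratio of 0.69. The intervals of each gene were apart between the libraries, but those of *Bmp5* allowed log2 ratios from 0.35 to 0.96 and those of *Bmp2* from 0.21 to 1.17. Both ranges include values under a fold of 1.5, and with a pseudocount of 1 neither gene passed it.

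The summed FPKM of the 5 ligands was 107.2 in control and 204.2 in mutant nerves, and its make-up differed little. *Bmp7* took 39.6% of the sum in control and 41.1% in mutant nerves, *Bmp4* 35.4% and 33.6%, and *Bmp6* 21.4% and 22.3%. The remaining share belonged to *Bmp5* and *Bmp2*, at 2.57% and 1.04% in the control. The level of *Bmp7* was 1.85 times that of *Bmp6* in the control and 1.84 times in the mutant. These shares and quotients are taken within a library and do not depend on how the libraries are scaled.

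Of the receptors, *Bmpr1a*, a widely expressed type I receptor, had the highest level and the smallest difference. It was 24.0 FPKM in the control (22.5 to 24.5) and 27.2 in the mutant (25.7 to 27.6), a log2 ratio of 0.18. *Bmpr1b*, the second type I receptor, was 7.37 FPKM (6.75 to 7.99) and 9.80 FPKM (9.27 to 10.4), a log2 ratio of 0.41. *Bmpr2*, the type II receptor, was 8.496 FPKM (8.07 to 8.90) and 10.4 FPKM (9.94 to 10.8), a log2 ratio of 0.29. All 3 were higher in the mutant with intervals that did not overlap, although this direction turned for each of them when the sum over every row was set equal in both libraries (-0.49, -0.255 and -0.375) or relative to the meningeal markers, and for *Bmpr1a* also relative to the astrocyte markers. *Bmpr1a* exceeded *Bmpr1b* 3.26-fold in the control and 2.78-fold in the mutant. The summed ligand FPKM was 2.69 times the summed receptor FPKM in the control and 4.31 times in the mutant. Further ligands and receptors described below, such as *Gdf10* and *Acvr1*, are not in these sums.

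Of the antagonists, *Chrd* had the higher level and *Nog* did not differ detectably. *Chrd* was 5.54 FPKM in the control (4.95 to 6.13) and 7.72 in the mutant (6.95 to 8.21), a log2 ratio of 0.47, which turned to -0.19 with an equal sum over every row and was also below 0 relative to the meningeal markers. Its row shared 1385 bases with that of the neighbouring *Thpo*. *Nog*, a gene without introns, was 1.29 FPKM in control and 1.34 in mutant nerves, a log2 ratio of 0.06. On its span of 1922 bases this corresponds to about 68.2 and 103 fragments, and the overlapping intervals of 0.904 to 1.66 and 1.003 to 1.641 allowed log2 ratios from -0.67 to 0.79. A difference in *Nog* was therefore not detectable at this depth, and its direction turned under 5 of 16 other settings. The summed ligand FPKM was 15.7 times the summed FPKM of *Nog* and *Chrd* in the control and 22.5 times in the mutant. These quotients cover only these 2 antagonists. The antagonist *Nbl1*, described below, was 134.6 FPKM in control and 243.5 in mutant nerves, above the ligand sums of 107.2 and 204.2.

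**Figure D2:**
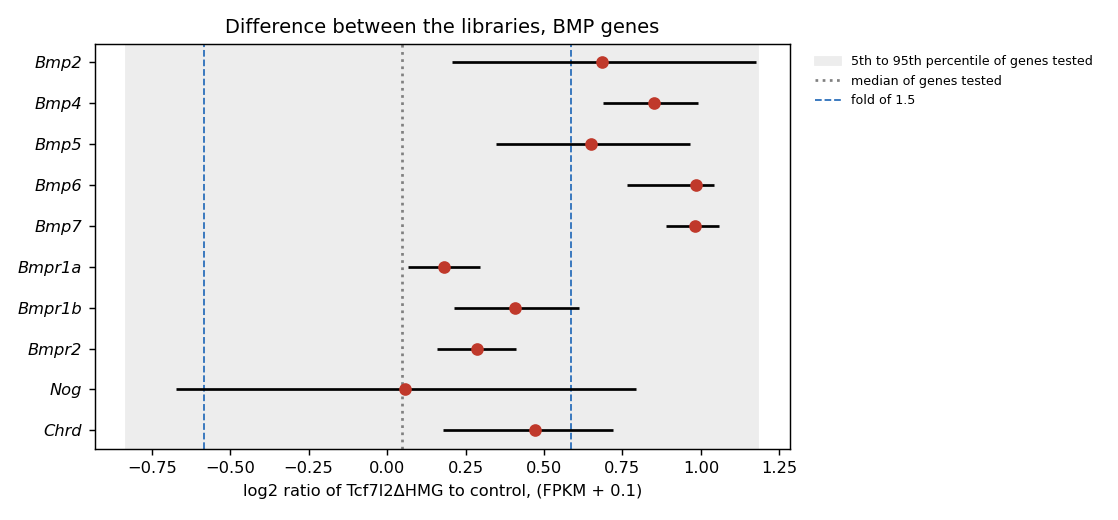
Log2 ratio of mutant to control for the 10 BMP genes (points), with lines for the range that both Cufflinks intervals allow, dashed lines at a fold of 1.5, a dotted line at the median of all genes tested (0.047) and a grey band from their 5th to 95th percentile (-0.83 to 1.18). The points of the 5 ligands lie right of the upper dashed line and those of the receptors and antagonists left of it. The lines of *Bmp2*, *Bmp5*, *Bmpr1b*, *Chrd* and *Nog* cross it, and all 10 points lie inside the band.

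The order of levels was nearly the same in both libraries. From the top it was *Bmp7*, *Bmp4*, *Bmpr1a*, *Bmp6*, *Bmpr2*, *Bmpr1b*, *Chrd*, *Bmp5*, *Nog* and *Bmp2* in the control. *Bmpr1a* and *Bmp6*, and likewise *Nog* and *Bmp2*, had overlapping intervals there. In the mutant *Bmp6* stood above *Bmpr1a* with intervals apart, and *Bmp2* stood above *Nog* with intervals that overlapped. *Bmpr2* and *Bmpr1b* also overlapped in the mutant. By the looser mark of intervals that did not overlap, 9 of the 10 genes were higher in the mutant and 0 lower, but this held for 30.0% of all genes in the upward and 22.4% in the downward direction, so it separates genes less than the fold.

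Other genes of the pathway were taken from lists written for their roles. Of 11 further BMP and GDF ligands, 3 passed the filter on low values. Among the 3, 1 was higher by more than 1.5-fold, beside 15.4% of all genes tested. That ligand was *Gdf10* (also called BMP3b), at 31.1 FPKM in the control (29.3 to 32.9) and 90.5 in the mutant (88.8 to 94.1). Its log2 ratio of 1.54 lay above that of each of the 5 ligands described first. *Gdf11*, a ligand of activin receptors, was 9.93 and 13.9 FPKM. *Bmp15*, known as an oocyte factor, was 0.924 and 1.025 FPKM, and *Gdf5* was 0.583 and 0.747 FPKM, with intervals that overlapped for both genes. *Bmp15* passed the filter through the mutant alone.

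Among 8 further receptors and co-receptors, 7 passed the filter, 4 were higher, 3 were lower and 0 differed by more than 1.5-fold (median log2 ratio 0.19). That fold was passed upward by 15.4% and downward by 8.52% of all genes tested. *Rgma*, a co-receptor of BMPs that also guides axons, was 41.6 FPKM in control and 56.2 in mutant nerves. Its relative *Rgmb* was 6.62 and 9.22 FPKM. *Eng* (endoglin, of endothelial cells) was 17.2 and 19.5 FPKM, and the type I receptor *Acvr1* was 6.60 and 8.17 FPKM. The 3 lower genes, named after their values were seen, were *Acvrl1* (log2 ratio -0.18), *Acvr2a* (-0.05) and *Acvr2b* (-0.07), each with overlapping intervals. The receptors as a group thus lay closer to the median of all genes than the ligands did.

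Of 17 further extracellular antagonists and modulators, 8 passed the filter (median log2 ratio 0.55). Of these, 4 were higher by more than 1.5-fold and 0 were lower by that fold, beside 15.4% and 8.52% of all genes tested. Among the 4, *Dand5* (fold 1.51) and *Bmper* (1.53) passed narrowly at low levels and are named after their values were seen. *Fstl3* (0.849 and 1.045 FPKM), also named after its values were seen, passed the filter through the mutant alone. When each library had to reach 1 FPKM, the median was 0.60. *Nbl1*, which encodes the BMP antagonist DAN, was 134.6 FPKM in the control (131.4 to 140.3) and 243.5 in the mutant (213.2 to 290.3). *Crim1*, a membrane protein that binds BMPs through cysteine-rich repeats, was 6.64 FPKM (6.22 to 7.06) and 14.7 FPKM (14.1 to 15.3), a log2 ratio of 1.13. *Twsg1*, a partner of chordin, was 27.9 and 39.5 FPKM and *Fstl1* was 198.0 and 252.0 FPKM, both under the fold. Of the 3 genes listed as chordin proteases, *Bmp1* was lower by less than the fold, at 56.4 FPKM in the control (54.9 to 58.0) and 48.1 in the mutant (47.16 to 49.95). Whether each of the 3 cuts chordin was not tested. *Tll1* was 1.42 and 2.58 FPKM, and *Tll2* was 2.03 and 0.150 FPKM, with a wide control interval of 0.907 to 3.16.

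Inside the cell, the Smads that relay BMP signals differed little (median log2 ratio 0.14 over 4 genes). *Smad5* was 13.9 FPKM in control and 12.9 in mutant nerves, *Smad4* 13.7 and 15.4, and *Smad1* 8.87 and 9.52. *Smad9* was the exception above a fold of 1.5, at 2.20 FPKM (1.92 to 2.47) and 3.57 FPKM (3.28 to 3.86). Of 5 inhibitors, 1 was higher and 1 was lower by that fold, beside 15.4% and 8.52% of all genes tested. *Smad6*, an inhibitory Smad that BMPs induce, was 2.02 FPKM (1.63 to 2.39) and 4.02 FPKM (3.45 to 4.37), while *Smurf1*, a ubiquitin ligase for BMP Smads, was 32.5 FPKM (31.3 to 33.9) and 20.5 FPKM (19.7 to 21.5). *Smad7* was 12.49 and 11.99 FPKM and *Smurf2* 13.4 and 16.5 FPKM.

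Of 7 genes listed as BMP-responsive, 6 were higher in the mutant, 2 of them by more than 1.5-fold, with a median log2 ratio of 0.46. Of all genes tested, 54.6% were above 0 and 15.4% were higher by that fold. The *Id* genes, inhibitors of basic helix-loop-helix factors, stayed below the fold. *Id1* was 68.9 FPKM in control and 98.5 in mutant nerves, *Id2* 34.1 and 47.1, *Id3* 239.0 and 254.6, and *Id4* 139.0 and 158.5. The authors had named *Id2* among the genes upregulated in the mutant nerve. Here it was higher too, but at a fold of 1.38. The values of *Id1* and *Id2* lay above their own intervals in both libraries. That of *Id3* did so in the control alone (183.5 to 198.1), and its mutant interval was 249.0 to 264.7. The genes above the fold were *Msx1* (1.153 and 2.765 FPKM) and *Atoh8* (11.3 and 18.4 FPKM), which encode transcription factors and are named here after their values were seen.

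**Figure D3:**
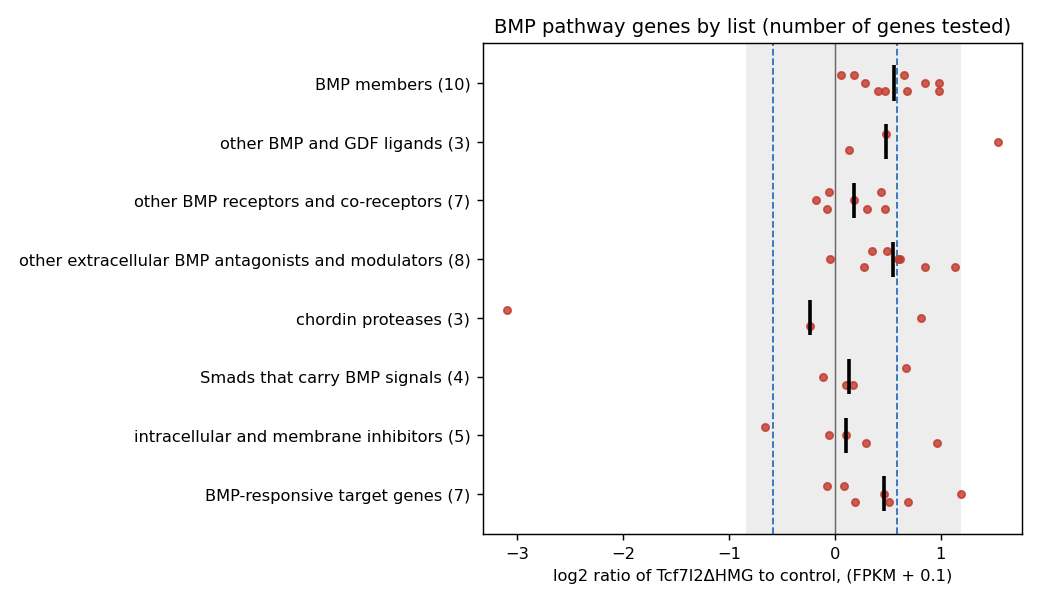
Log2 ratio of mutant to control for each gene tested (points) in the 10 BMP genes and 7 further lists of the pathway, with a black bar at each list median, dashed lines at a fold of 1.5 and a grey band for the 5th to 95th percentile of all genes tested. The list of further receptors lies between -0.18 and 0.47, while *Gdf10* (1.54), *Msx1* (1.19) and *Tll2* (-3.09) lie outside the band.

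The markers of several cell types in the nerve moved between the libraries as well. Their counts stand beside 15.4% of all genes tested that were higher by more than 1.5-fold and 8.52% that were lower. All 7 OL markers were lower in the mutant, 6 of them by more than 1.5-fold, and their FPKM added up to 14745 in control and 6499 in mutant nerves, with *Mobp* at 2959 and 719. These markers made up 3.38% of the FPKM of named rows in control and 1.42% in mutant nerves. The log2 ratio of *Bmp7*, 0.98 as deposited, was 0.91 with a common sum over named rows and 0.88 with these markers left out of that sum. *Bmp5* was 0.59 with the markers in the sum and 0.56, under the fold, without them. Without them, 4 ligands remained above the fold. Of 5 OL precursor markers, 4 were lower in the mutant, 1 of them by more than 1.5-fold (*Gpr17*, 235.0 and 155.8 FPKM). *Pdgfra* was 35.9 and 33.6 FPKM, with a wide mutant interval of 31.98 to 161.1. Of 7 astrocyte markers, 6 were higher, 1 of them by more than 1.5-fold, and the sum was 4898 and 5723, with *Gfap* at 4059 and 4729 and *Gja1* at 237.2 and 381.1 FPKM.

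Meningeal fibroblasts, the cells of the sheath around the nerve, are a known source of BMPs. All 7 of their markers were higher in the mutant, 3 of them by more than 1.5-fold, beside 54.6% and 15.4% of all genes tested. Their total FPKM was 1211 in control and 1636 in mutant nerves, and 0 of them was at 0 in either library. *Col1a2* was 334.8 and 438.0 FPKM and *Col1a1* 258.9 and 362.6 FPKM, and the median log2 ratio was 0.49. Relative to this median, the ligands had log2 ratios of 0.165 (*Bmp5*), 0.20 (*Bmp2*), 0.365 (*Bmp4*), 0.495 (*Bmp7*) and 0.50 (*Bmp6*), all above 0 and none above a fold of 1.5. Relative to the astrocyte markers (median 0.22), they were 0.43 to 0.76, and *Bmp4*, *Bmp6* and *Bmp7* passed the fold. The part of a different amount of meninges in the ligand levels was not tested.

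Markers of the other cell types did not share a direction, and those of red blood cells and neurons that passed the filter were all higher in the mutant. The fold of 1.5 was passed upward by 15.4% and downward by 8.52% of all genes tested. Of 7 microglia markers, 5 were higher and 0 passed the fold, with *C1qa* at 68.51 and 95.02 FPKM. Of 7 endothelial markers, 3 were higher and 4 lower, with *Cldn5* at 64.1 and 43.7 FPKM and *Cdh5* at 20.9 and 31.6. Pericyte and smooth muscle markers were split likewise (4 higher, 3 lower), with *Rgs5* at 63.0 and 40.5 FPKM and *Pdgfrb* at 18.6 and 22.5, and *Tagln* was listed at 0 in the control. The 5 red blood cell names found stand for 3 measurements, all higher by more than 1.5-fold: *Hba-a1* and *Hba-a2* had the same values (88.7 and 227.9 FPKM), as had *Hbb-b1* and *Hbb-bs* (43.8 and 104.4), and *Alas2* (0.607 and 1.39) passed the filter through the mutant alone. Of 6 neuron markers, 4 passed the filter and all 4 were higher in the mutant, 3 by more than 1.5-fold (median log2 ratio 0.94). *Nefl* was 13.0 and 15.4 FPKM and *Snap25* 5.92 and 10.3. The filter itself shaped this list, as *Rbfox3* (0.658 and 1.51 FPKM) passed it through the mutant alone and *Pou4f1* (0.776 and 0.153 FPKM) did not pass, both named after their values were seen. Retina and pigment epithelium markers did not pass the filter (0 of 4), with *Sag* at 0.280 and 0.0827 FPKM. The part of these cells in the BMP levels was not tested.

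**Figure D4:**
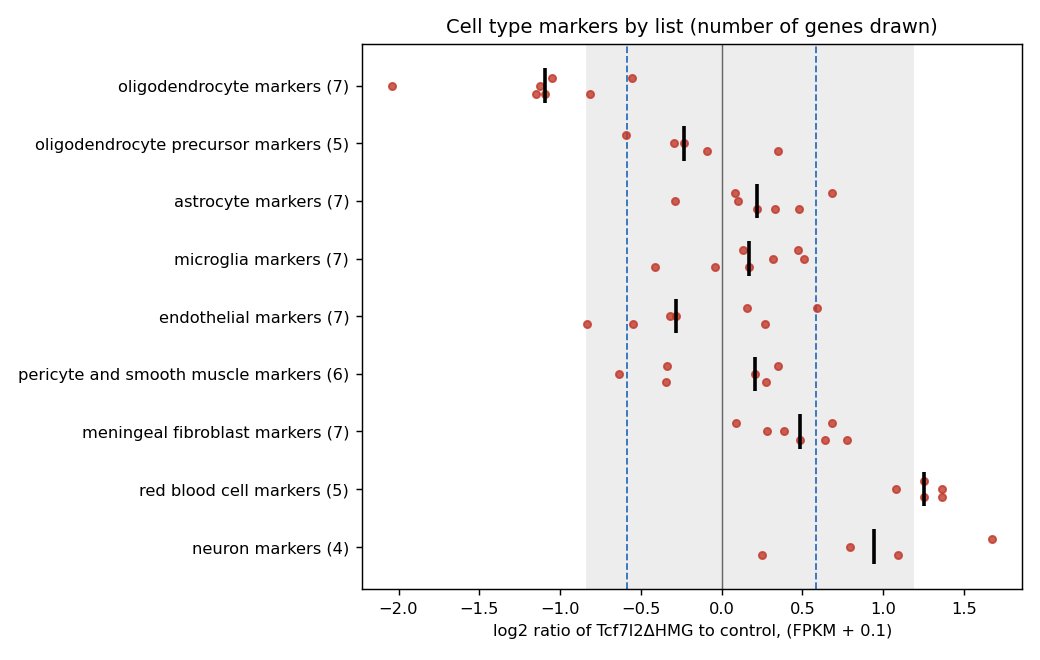
Log2 ratio of mutant to control for the markers of 9 cell types (points), with a black bar at each list median, dashed lines at a fold of 1.5 and a grey band for the 5th to 95th percentile of all genes tested. OL markers lie left of 0 and meningeal markers right of it, and *Tagln*, listed at 0 in the control, is counted in its median but not drawn.

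How the libraries are scaled decided the size of the difference more than any other choice. Rows without a gene name made up 70.7% of all FPKM in control and 80.7% in mutant nerves, so a common sum over all rows multiplies each mutant value relative to control by the same factor, a log2 shift of -0.67 before the pseudocount is added. On that scale *Bmp6* and *Bmp7* were 0.31 each, *Bmp4* was 0.18 and *Bmp2* 0.06, and *Bmp5* was -0.002. Such a factor acts on every gene, so the order of the 10 ratios tells nothing about which scale is right. A common sum over named rows alone shifted the ratios by -0.07 and left *Bmp6* and *Bmp7* at 0.91. Scaling to the 75th percentile of genes tested gave a shift of -0.049. In the control, the unnamed rows inside the span of *Bmp4* had FPKM of 28.41 to 108.8, while their intervals reached at most 8.145. Whether unnamed rows at large lie above their intervals was not tested.

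**Figure D5:**
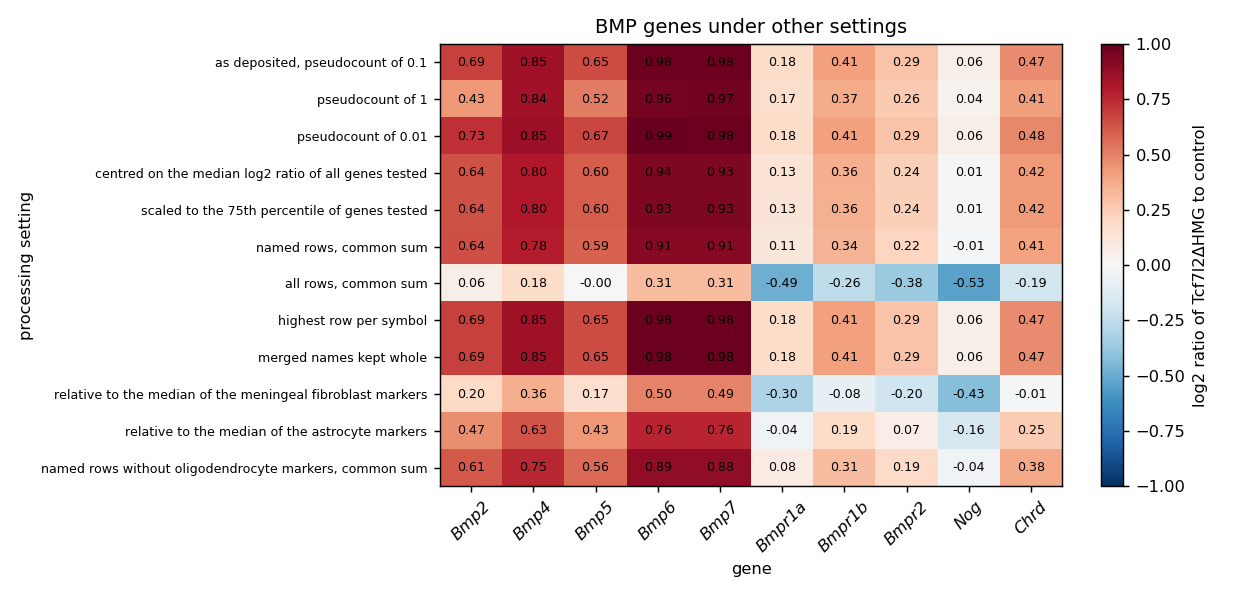
Log2 ratio of mutant to control of each BMP gene (columns) under the processing settings that can change it (lines), coloured from -1 (blue) to 1 (red). Settings that rescale a library shift all columns nearly alike, and the lines with a common sum over all rows and relative to the meningeal markers turn the receptors and antagonists to values below 0.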

How the data were processed

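Whole optic nerves at P12 were compared by RNA-seq, with 1 library for the controls and 1 for *Tcf7l2*ΔHMG. The authors ran TopHat with default settings and then used Cufflinks for the deposited FPKM values and their confidence intervals, with build mm9 according to the submitters' processing notes; versions are not given in the sources used here. Rows were assembled per library, so their ends can differ, and strand use in the counting is not given. Merged symbols were split and FPKM was summed per symbol. Genes that had the status OK in each table and reached 1 FPKM in either were compared by log2 of FPKM plus 0.1 and a fold above 1.5. No test was run, as there are no replicates. Depth was the value at which bounds of unnamed rows under 100 bases became whole fragments. The members and lists were chosen with earlier results of these data known. Genes named beside the 10 members were *Tcf7l2*, the 4 highest of each pathway list and the 2 highest of each marker list by mean FPKM; exceptions are marked, and a few marker genes are not reported here. The computation was tested on simulated data. Python 3.11.15, numpy 2.4.6, pandas 2.3.3 and matplotlib 3.10.9 were used.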

Additional observations from a re-analysis of the deposited data

How the results depend on the processing

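The 5 ligands above a fold of 1.5 became 3 with a pseudocount of 1, 0 with a fold of 2, 0 after all rows were rescaled to a sum of 1000000, 0 relative to the meningeal markers, 3 relative to the astrocyte markers, and 4 with named rows rescaled without the OL markers (*Bmp5* 0.56). The median log2 ratio of the 10 genes, 0.56, became -0.095, 0.075 and 0.341 with all rows rescaled and relative to the meningeal and astrocyte markers, in that order. The rescaling of all rows turned *Bmp5* to -0.002 and moved the list medians to -0.18 (further ligands), -0.48 (further receptors), -0.11 (further antagonists), -0.90 (chordin proteases), -0.53 (Smads), -0.50 (inhibitors) and -0.20 (targets). The median of the further ligands, 0.485, was 0.135 without a filter and 1.012 when each library had to reach 1 FPKM, which for the chordin proteases gave 0.29 in place of -0.23, since fewer genes were tested. The comparisons with marker medians, the sum without OL markers, merged names kept whole and the unnamed rows in *Bmp4* were chosen after seeing the data. No paired analysis was possible because each genotype had a lone library. The spread from animal to animal cannot be estimated, and *Nog* and *Bmp2* rest on the fewest fragments.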

Other observations

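A few genes of the pathway fell below the filter of 1 FPKM yet had intervals that were apart. They are named here after their values were seen. *Bmp3*, which encodes a ligand that opposes other BMPs, was 0.356 FPKM in the control (0.233 to 0.477) and 0.905 in the mutant (0.716 to 1.09). *Sostdc1*, a secreted antagonist of BMP and Wnt ligands, was lower, at 0.398 FPKM (0.227 to 0.579) and 0.0809 FPKM (0.0143 to 0.143). *Fst* (follistatin), which binds activins and BMPs, was 0.2715 FPKM (0.155 to 0.403) and 0.0939 FPKM (0.0321 to 0.150). At these levels the values rest on few fragments, and no replicate checks them.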
